A study of Mus musculus with 12 samples.

Results

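Gene expression in TM3 cells treated for 24 h with 5 mM methoxyacetic acid (MAA) was compared with that in cells treated for 24 h with 1 mM MAA. The 4 samples of these 2 treatments were chosen by dose and time from the 12 samples of the series, which also holds both doses at 3 h and 8 h. TM3 cells derive from Leydig cells of the immature mouse, and they were grown in DMEM-F12 medium with horse serum and fetal bovine serum. Each sample is a 2-colour Agilent array on which RNA of cells given MAA was set against RNA of cells kept for the same time in medium without MAA. Each dose had 2 such arrays with the dyes exchanged, and each RNA was a pool of 3 cultures. A pool hides the spread among its cultures, a single line stands for 1 source of cells, and a change in RNA per cell cannot be told apart from a change in the mix of cells. The labels do not say whether the arrays of the 2 doses used the same control pools.

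The body forms MAA from a glycol ether used as a solvent, and exposure to it harms spermatogenesis. It is a short-chain fatty acid derivative that can inhibit histone deacetylases, and it changes signalling through nuclear receptors and protein kinases in cultured cells. Leydig cells make testosterone from cholesterol, produce the hormone INSL3, and lie in a connective tissue whose matrix is laid down and cut by secreted proteins such as collagens, proteoglycans and matrix metalloproteinases.

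Leydig cell markers were read first in the control channel of the 4 arrays. Star, Cyp17a1 and Insl3 were well above background on all 4, which made 3 of 8 markers. Cyp11a1, Hsd3b1, Hsd3b6, Lhcgr and Nr5a1 were not. The same reading passed 4 of 8 Sertoli cell markers (Gata4, Rhox5, Sox9 and Wt1) and 4 of 8 germ cell markers (Ddx4, Prm1, Sycp3 and Tnp1). It also passed 5 of 6 peritubular myoid markers (all but Myh11), 2 of 6 macrophage markers (Cd14 and Lyz2) and 2 of 7 endothelial markers (Emcn and Tek). Among all probes, 65.2% to 70.3% were well above background in the control channel of each of these arrays. Both channels were so on all 4 arrays for 25404 of 41174 probes. Detection of these markers therefore does not set the cell types apart.

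At 24 h the higher dose did not simply give more of what the lower dose gave. Some genes moved further at 5 mM, some had the larger response at 1 mM, and a few rose at 1 mM and fell at 5 mM. The last group holds secreted matrix proteins, among them the protease Mmp3. The comparison is a dose difference, which is the mean log2 MAA/control ratio at 5 mM minus the mean log2 MAA/control ratio at 1 mM. It was tested for each probe by a limma contrast in a fit of all 12 arrays, with a Benjamini-Hochberg adjusted p under 0.05 over all probes.

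Of 41173 probes tested, 3462 passed (8.41%), of which 1663 were higher at 5 mM than at 1 mM (4.04%) and 1799 were lower (4.37%). With 1 probe for each of 16017 genes, 822 genes were higher (5.13%) and 899 were lower (5.61%). A difference over 2-fold was found for 972 of the probes that passed, 542 higher and 430 lower. Across 25404 probes with both channels well above background on all 4 arrays, the dose difference in replicate 1 and that in replicate 2 had a correlation of 0.887, and across all 41108 probes with both values it was 0.511. Each p-value rests on 2 arrays per dose, so the number of arrays limits the precision, and the median standard error of a dose difference was 0.213 on the log2 scale. With normexp background correction and loess in place of the scanner software's signals, 4714 probes passed, 2875 higher and 1839 lower. Median centring of each array left 1525 probes, and a replicate block gave 7209. Without 1 of the 4 arrays between 816 and 1011 probes passed. A fit of the 4 arrays at 24 h alone has 2 residual degrees of freedom, and in it limma passed 0 probes, with 8222 at an unadjusted p under 0.05.

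**Figure D1:**
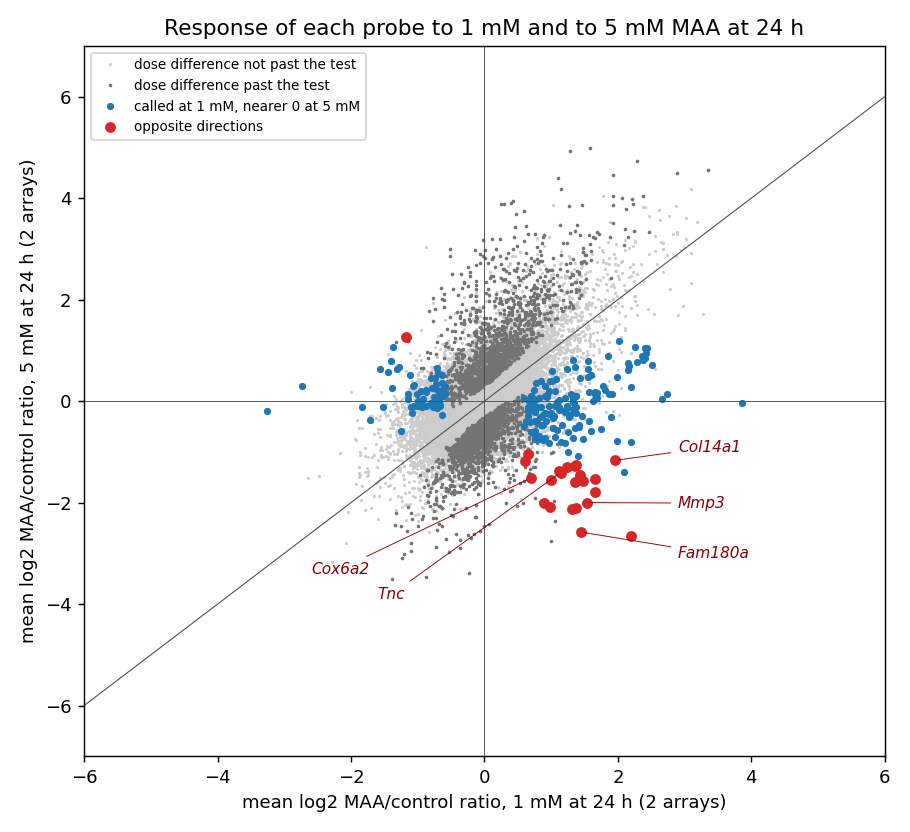
Mean log2 MAA/control ratio of each probe at 1 mM (horizontal) and at 5 mM (vertical) after 24 h, 2 arrays each, with the diagonal marking equal responses. The 23 probes with opposite directions (red) stand apart from the diagonal, 22 of them at the lower right, and the 209 probes with the larger response at 1 mM (blue) lie along the horizontal axis.

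Each dose was also set against its own controls by the study's thresholds, which ask for an unadjusted p under 0.005 (here from limma over all probes, and not from the error model that the study used) and for a change that exceeds 2-fold for the higher dose and 1.5-fold for the lower. By these, the higher dose moved 2315 probes, 1586 up and 729 down, and the lower dose moved 1925, 1343 up and 582 down. Among probes that were higher at 5 mM the median ratio was 0.88 at 5 mM and 0.12 at 1 mM. Among probes that were lower the medians were -0.69 and -0.04, so in both sets the median was further from 0 at 5 mM.

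A small group of genes went up at 1 mM and down at 5 mM. Its named genes include secreted proteins, receptors and proteins of the extracellular matrix. Calls of opposite sign at the 2 doses were found for 23 probes (0.0559%), 22 of them up at 1 mM and down at 5 mM. With normexp and loess 5 probes had such calls, 3 of them among the 23. The remaining probe, which carries no gene symbol here, went the other way. Symbols were assigned to 14 of the 23 probes, for 13 genes, of which 12 are described here: Fam180a, Mmp3, Il20ra, Tnc, Fbxw26, Col14a1, Fbxw14, Fbxw16, Ptgdr, Epyc, Ostn and Cox6a2. All 23 were chosen for this pattern by their own ratios, so the dose difference on them is a description, and its adjusted p is given only to place them among all probes. The median dose difference of the 22 probes was -2.92, against 0.05 over all probes. It is not exact, since some of these probes had a dim MAA channel on both 5 mM arrays. At least 1 channel was well above background on each of the 4 arrays for 17 of the 23, and both channels were for 10.

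Mmp3 encodes stromelysin 1, a secreted protease that cuts matrix proteins and activates other matrix metalloproteinases. The log2 ratio of Mmp3 was 1.58 and 1.49 on the arrays at 1 mM against -2.12 and -1.87 on the arrays at 5 mM. All 4 arrays were far from 0, and the 2 doses lay on opposite sides of it. The dose difference was -3.53, or 11.5-fold (limma adjusted p 9.01e-05), and Mmp3 passed each dose's thresholds. On slide 1, which carried replicate 1 of both doses, the difference was -3.70, and with the slide as a term of the fit it was -3.60. Normexp with loess gave Mmp3 a smaller difference of -1.92 (limma adjusted p 3.15e-04) with means of 0.93 at 1 mM and -0.99 at 5 mM, the latter just short of the 2-fold threshold.

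Fam180a encodes a small protein predicted to be secreted, whose function is little known. The log2 ratio of Fam180a was 1.44 and 1.45 on the arrays at 1 mM against -2.64 and -2.53 on the arrays at 5 mM. The 2 arrays of each dose nearly coincided, and the doses again lay on opposite sides of the control level. The dose difference of -4.02, or 16.3-fold, was the largest among probes with a gene symbol (limma adjusted p 9.01e-05). It was -4.08 within slide 1 and -3.86 by normexp with loess, by which Fam180a kept its calls at both doses.

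The promoters of Mmp3, Fam180a and Il20ra are shown because they are the 3 of 9 promoters of opposite-direction genes found in the RefSeq table (GRCm38.p6) that hold the AP-1 letters TGANTCA, a pattern known from matrix metalloproteinase promoters. Each runs 5′ to 3′ on the gene's strand from 250 bases before the start to 50 bases after it. Capitals mark AP-1 letters and, in Mmp3, the letters TTTGAA of the CHR motif. Positions are chr9:7445572-7445871 on the plus strand for Mmp3, chr6:35326092-35326391 on the minus strand for Fam180a and chr10:19712337-19712636 on the plus strand for Il20ra.
Mmp3: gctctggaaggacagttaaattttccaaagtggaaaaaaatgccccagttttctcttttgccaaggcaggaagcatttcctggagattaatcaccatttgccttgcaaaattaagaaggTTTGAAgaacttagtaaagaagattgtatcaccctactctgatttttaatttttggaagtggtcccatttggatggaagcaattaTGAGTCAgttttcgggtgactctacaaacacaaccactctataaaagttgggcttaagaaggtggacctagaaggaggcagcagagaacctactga
Fam180a: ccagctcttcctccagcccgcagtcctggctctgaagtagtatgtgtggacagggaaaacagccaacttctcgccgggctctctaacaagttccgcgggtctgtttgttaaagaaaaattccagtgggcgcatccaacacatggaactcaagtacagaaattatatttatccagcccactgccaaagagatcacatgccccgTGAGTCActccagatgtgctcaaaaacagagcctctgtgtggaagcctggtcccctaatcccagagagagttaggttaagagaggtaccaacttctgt
Il20ra: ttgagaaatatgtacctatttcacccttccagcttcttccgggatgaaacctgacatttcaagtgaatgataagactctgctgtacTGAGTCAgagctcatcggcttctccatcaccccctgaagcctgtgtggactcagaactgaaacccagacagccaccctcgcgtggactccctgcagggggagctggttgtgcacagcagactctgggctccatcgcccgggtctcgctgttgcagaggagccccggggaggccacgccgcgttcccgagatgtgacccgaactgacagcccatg
The AP-1 letters were present, on either strand, in 7.93% of all 27025 promoters, and the CHR letters in 18.1%. They begin 46 bases before the start in Mmp3, 48 bases before it in Fam180a and 164 bases before it in Il20ra. A match of letters is a description and not a bound site. Promoters of Col14a1, Ostn and Cox6a2 were not in the table.

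Col14a1, Tnc and Epyc, which encode matrix proteins, were in the group. Col14a1 encodes a collagen that sits on the surface of collagen fibrils, and its log2 ratio was 2.05 and 1.84 at 1 mM against -1.11 and -1.23 at 5 mM. Its arrays lay close together within each dose, and the dose difference was -3.12 (limma adjusted p 0.00581). A second Col14a1 probe was not well above background on any array. Col14a1 kept the dose difference but lost its opposite calls by normexp with loess, which gave -1.96, and under the deposited log ratios, under the value table, under a slide block (-3.06), under a replicate block (-3.12) and without any 1 of the 4 arrays. Tnc encodes tenascin C, a matrix glycoprotein of remodelling tissue. The log2 ratio of its brighter probe was 1.18 and 1.10 at 1 mM against -1.45 and -1.37 at 5 mM, again with a clear gap between the doses. The dose difference of Tnc was -2.55 (limma adjusted p 6.11e-04), and it was -2.33 by normexp with loess, by which it kept its calls at both doses. A second probe of Tnc had a MAA channel at least 1.83-fold lower at 5 mM, with the control channels dim. It missed the test in each of the 4 fits without 1 array (-3.76 to -3.14) and by normexp with loess (-0.22, limma adjusted p 0.247). Its opposite calls were also lost with a replicate block, with a slide block, under the deposited log ratios and under the value table. Epyc encodes epiphycan, a small leucine-rich proteoglycan, and the MAA signal of its probe with opposite calls was at least 5.53-fold lower at 5 mM. A brighter probe of Epyc gave -2.03 (limma adjusted p 0.0257). The first Epyc probe missed the test in each fit without 1 of the 4 arrays, with values from -2.89 to -2.39. The second did so too, from -2.31 to -1.74. The first lost its opposite calls by normexp with loess, which gave -0.63. With a replicate block and with a slide block it kept the dose difference (-2.64 and -2.53) but again lost its opposite calls.

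A secreted peptide and a subunit of a mitochondrial enzyme were also in the group. Ostn encodes osteocrin, which acts on natriuretic peptide clearance, and had log2 ratios of 1.39 and 1.06 at 1 mM against -1.25 and -1.35 at 5 mM. The doses did not overlap, and the dose difference was -2.53 (limma adjusted p 0.00156). Normexp with loess gave Ostn -0.92. Cox6a2 encodes the muscle form of a cytochrome c oxidase subunit, with log2 ratios of 0.68 and 0.69 at 1 mM against -1.68 and -1.35 at 5 mM. Here the fall at 5 mM was the larger of the 2 moves, and the dose difference was -2.20 (limma adjusted p 0.00149). Cox6a2 lost its call at 1 mM without either array of that dose and by normexp with loess, which gave -1.53.

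For some of the group neither 5 mM array had a MAA channel well above background, so a limit is given in place of a fold. It compares the MAA channels of the 2 doses after single-channel normalization, with the dim channel set to the lowest signal that counted as above background on its array. Il20ra, a subunit of the receptors for IL-20 family cytokines, had log2 ratios of 1.77 and 0.97 at 1 mM against -1.83 and -2.36 at 5 mM, with a MAA signal at least 3.83-fold lower at 5 mM than at 1 mM. Its replicates at 1 mM were far apart, and without replicate 1 at 1 mM it passed the test (limma adjusted p 0.0257) but lost its call at 1 mM. Against its control channel at 5 mM, the limit of Il20ra was short of the 2-fold threshold. The fall of Il20ra below control is therefore uncertain in size. Normexp with loess gave Il20ra -0.55. Ptgdr encodes a receptor for prostaglandin D2, and its MAA signal was at least 2.39-fold lower at 5 mM. No limit below its control channel at 5 mM was obtained, and that channel was above background on 1 of the 2 arrays. By normexp with loess Ptgdr was at -0.27 and did not pass (limma adjusted p 0.0981). Ptgdr passed the test but lost its call at 1 mM without either array of that dose (limma adjusted p 0.0178 and 0.0196), and its second probe, dim on all 4 arrays, did not pass (limma adjusted p 0.256).

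Fbxw26, Fbxw16 and Fbxw14 went the same way. They encode F-box and WD40 repeat proteins, of the kind that pick substrates for ubiquitin ligases. Fbxw26 had log2 ratios of 1.03 and 1.58 at 1 mM against -2.23 and -2.03 at 5 mM, with a MAA signal at least 5.08-fold lower at 5 mM. Against the control channel at 5 mM its limit was only 1.37-fold, short of the 2-fold threshold. For Fbxw16 the ratios were 1.18 and 1.53 at 1 mM against -1.56 and -1.62 at 5 mM, and the signal was at least 7.27-fold lower. Its limit against the control channel at 5 mM was 2.19-fold. One probe of Fbxw14 had 1.37 and 1.59 at 1 mM against -1.65 and -1.50 at 5 mM and a signal at least 2.35-fold lower. Its control channel was above background on 1 of the 2 arrays at each dose, so these ratios have no firm base. No limit below the control channel at 5 mM was obtained. The other 2 probes of Fbxw14 were dim on all 4 arrays. Normexp with loess gave Fbxw26 a much smaller difference of -0.58 (limma adjusted p 0.0104), Fbxw16 -0.79, and Fbxw14 -0.27, which did not pass (limma adjusted p 0.114). Other family members were looked up after these values were seen. Fbxw4 (-0.83, limma adjusted p 0.00561) and Fbxw9 (-0.48, limma adjusted p 0.0289) were also lower at 5 mM, while the bright probes of Fbxw2, Fbxw5, Fbxw7, Fbxw8, Fbxw11, Fbxw17 and Fbxw21 did not pass, with dose differences from -0.31 for Fbxw8 to 0.07 for Fbxw2. Fbxw24 passed (limma adjusted p 0.0250) with a MAA channel above background at 1 mM alone, and the probes of Fbxw13, Fbxw15 and Fbxw19 were dim on all or most of the arrays and did not pass. The promoters of the 3 genes are shown because they are near copies of one another. Transcripts and probes were not compared, so whether a probe of one gene may also read another's transcript was not tested.
Fbxw26: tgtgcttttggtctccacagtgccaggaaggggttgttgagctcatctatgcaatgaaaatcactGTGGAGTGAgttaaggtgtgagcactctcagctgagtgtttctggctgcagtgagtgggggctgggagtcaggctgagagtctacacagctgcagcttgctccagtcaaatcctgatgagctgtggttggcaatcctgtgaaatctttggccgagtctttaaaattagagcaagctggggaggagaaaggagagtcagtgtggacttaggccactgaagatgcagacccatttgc
Fbxw16: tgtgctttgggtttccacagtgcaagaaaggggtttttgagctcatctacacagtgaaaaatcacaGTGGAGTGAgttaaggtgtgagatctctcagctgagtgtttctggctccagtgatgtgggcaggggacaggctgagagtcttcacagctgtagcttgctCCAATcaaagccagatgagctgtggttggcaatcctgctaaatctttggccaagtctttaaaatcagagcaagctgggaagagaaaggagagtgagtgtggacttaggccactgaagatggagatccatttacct
Fbxw14: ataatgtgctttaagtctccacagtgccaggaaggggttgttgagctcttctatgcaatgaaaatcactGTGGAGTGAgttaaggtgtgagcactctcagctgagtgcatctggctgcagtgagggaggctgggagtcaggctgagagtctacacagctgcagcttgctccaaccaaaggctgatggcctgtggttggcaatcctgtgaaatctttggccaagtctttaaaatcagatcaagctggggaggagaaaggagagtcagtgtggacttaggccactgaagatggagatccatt
These windows are on the minus strand at chr9:109746040-109746339 for Fbxw26, chr9:109449091-109449390 for Fbxw16 and chr9:109287627-109287926 for Fbxw14. In a global alignment 91.8% of positions were alike between Fbxw26 and Fbxw14, 88.4% between Fbxw26 and Fbxw16 and 85.3% between Fbxw14 and Fbxw16. Capitals mark the SREBP letters TCACNCCAC, found here as their reverse complement and present in 1.22% of all promoters, and in Fbxw16 the CCAAT box, searched as the motif's letters and present in 37.9%. Since the 3 windows are near copies, their shared match counts once.

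**Figure D2:**
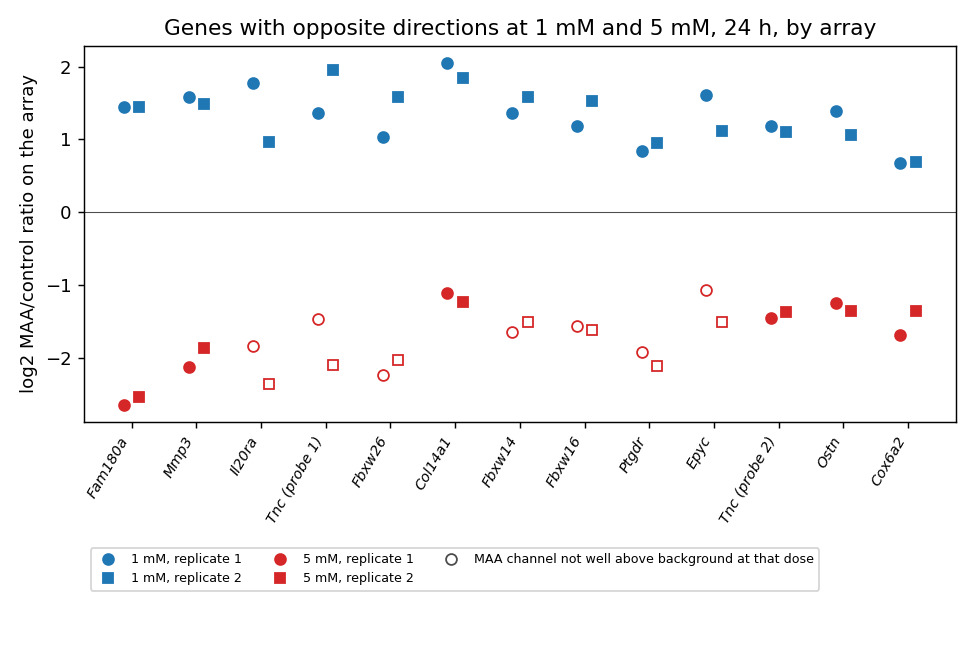
Log2 MAA/control ratio on each of the 4 arrays at 24 h (vertical) for 13 probes of the genes described with opposite directions, with open symbols where both arrays of that dose had a dim MAA channel. Every ratio at 1 mM (blue) lies above 0 and every one at 5 mM (red) below it, from 2.05 for Col14a1 to -2.64 for Fam180a.

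Thresholds decide who is in this group. The genes nearest to the thresholds on the inside, among those with both channels above background, were Cox6a2, with 0.69 at 1 mM and -1.52 at 5 mM, and Col14a1, with 1.95 and -1.17. Just outside were the complement gene C4b, with 1.13 and 1.37 on the arrays at 1 mM and -1.08 and -0.91 on those at 5 mM, the immunoglobulin superfamily gene Islr, with means of 0.65 and -0.94, and the collagenase gene Mmp13, with 0.43 and -1.45. C4b was just short of the 2-fold threshold at 5 mM before rounding, and Mmp13 missed the 1.5-fold threshold at 1 mM.

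Time set some of these genes apart from others. The dose difference was tested in the same way at the earlier times, where 4162 probes passed at 8 h (10.1%) and 1399 at 3 h (3.40%). Setting each array's median to 0 altered the balance of directions at these times. It left 1491 probes at 8 h, 448 higher and 1043 lower, against 1992 higher and 2170 lower without it, and 220 probes at 3 h, 140 higher and 80 lower, against 621 higher and 778 lower. The change of the dose difference between times was tested as a further contrast, and 438 probes passed between 8 h and 24 h (1.06%) and 576 between 3 h and 24 h (1.40%). A replicate block gave 2343 and 2564, and the upward share of the change from 8 h was 50.7% with it, against 63.2%. Of the 23 opposite-direction probes, 10 already differed between doses at 8 h and 1 at 3 h. The dose difference changed from 8 h to 24 h for 11 and from 3 h to 24 h for 14. The change reuses the ratios at 24 h by which these probes and the other named genes were chosen. For them it is a description, and its adjusted p only places them among all probes.

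For Mmp3 the dose difference was -0.09 at 3 h and -0.11 at 8 h, against -3.53 at 24 h. It was close to 0 at both early times, and the change from 8 h to 24 h was -3.41 (limma adjusted p 8.45e-04). The brighter probe of Tnc was alike, with 0.07 at 3 h and 0.02 at 8 h against -2.55 at 24 h, and a change from 8 h of -2.57 (limma adjusted p 0.00765). The second Tnc probe, with control channels dim at 24 h, was at 0.48 at 3 h and 1.90 at 8 h. Neither value passed (limma adjusted p 0.900 and 0.0782). Fam180a followed another course, with -1.36 at 3 h, -1.78 at 8 h and -4.02 at 24 h. The doses thus differed at every time for Fam180a (limma adjusted p 0.00760 at 3 h and 0.00117 at 8 h), and the gap grew by 24 h.

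**Figure D3:**
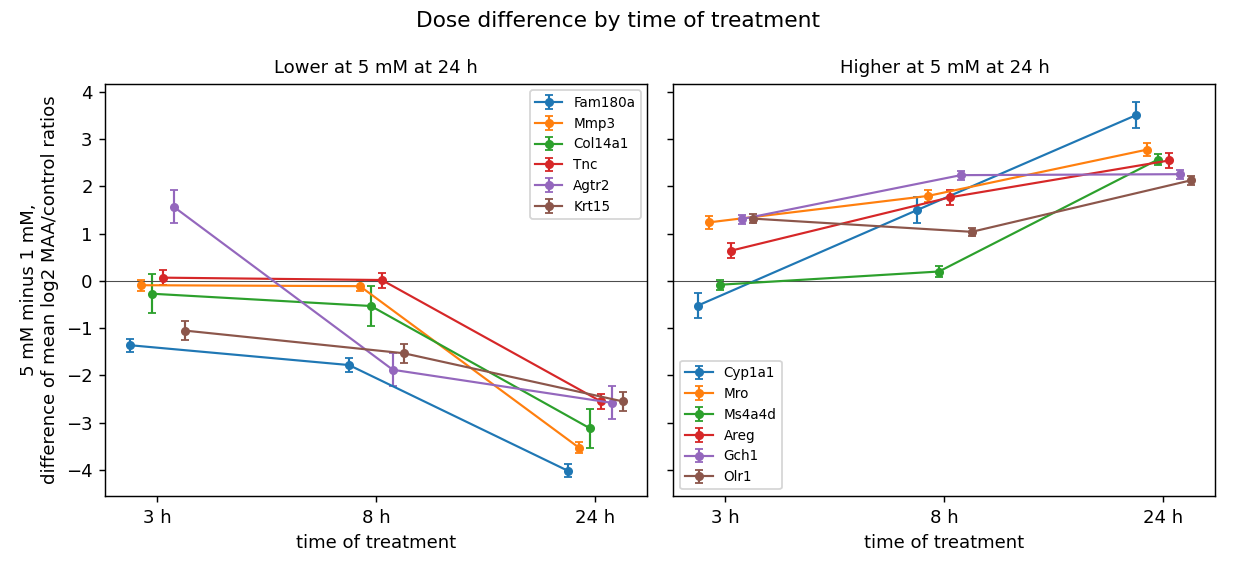
Dose difference (5 mM minus 1 mM, log2 scale) at 3, 8 and 24 h for 6 genes that were lower and 6 that were higher at 5 mM at 24 h, with bars of 1 standard error from the limma fit. Mmp3 and the brighter probe of Tnc stay near 0 until 8 h and then drop to -3.53 and -2.55, while Gch1 is already at 2.24 at 8 h.

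Because the dose difference is a difference of ratios, the 2 channels were also read singly. After normalization of single channels between arrays, the control channels of the 5 mM arrays and those of the 1 mM arrays differed for 4 of 41173 probes (0.00972%). The control signal of Mmp3 was 7.06 and 6.98 on the log2 scale on the 1 mM arrays and 6.86 and 6.84 on the 5 mM arrays, while the MAA signal was 8.68 and 8.51 at 1 mM against 4.86 and 5.08 at 5 mM. The controls hardly moved, and the MAA channels carried the difference. The control signal of Fam180a lay between 12.16 and 12.56 on the 4 arrays, and the MAA signal was 13.99 and 13.81 at 1 mM against 9.56 and 9.83 at 5 mM. Areg was less even, with a control signal of 3.91 and 4.16 on the 1 mM arrays and 5.69 and 5.21 on the 5 mM arrays. In Tm6sf1 1 array of 1 mM was bright in both channels, at 9.84 for MAA and 9.96 for control, against 6.39 and 5.88 on the other, so the MAA channels alone did not separate the doses (0.25, limma adjusted p 0.926) although the ratios did.

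**Figure D4:**
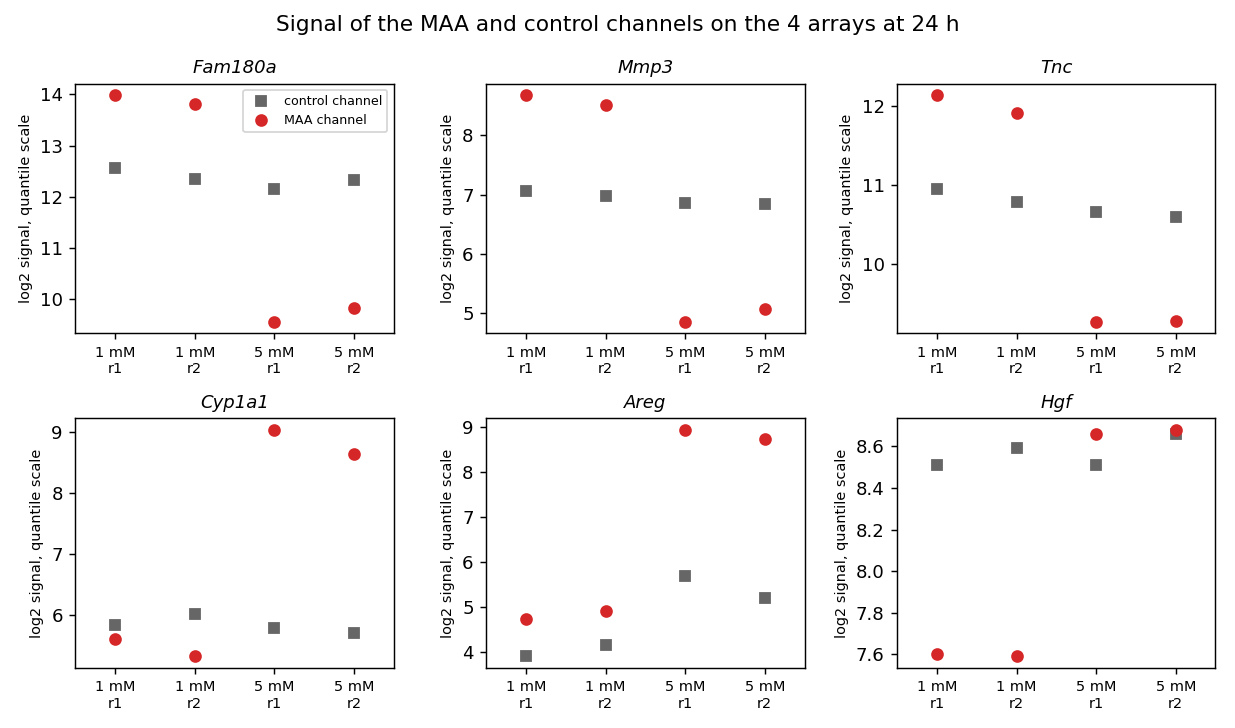
Normalized log2 signal of the MAA channel (circles) and of the control channel (squares) on the 4 arrays at 24 h for 6 genes. The control signal of Fam180a, Mmp3, Tnc and Cyp1a1 varies little over the arrays, and the MAA signal moves with dose, as from 8.68 and 8.51 to 4.86 and 5.08 for Mmp3.

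Genes that were higher at 5 mM include a xenobiotic enzyme, a growth factor, an enzyme of cofactor synthesis and a scavenger receptor. They were chosen as the 10 largest differences past the test that were over 2-fold in both replicates with both channels above background, so their size reflects that choice. Cyp1a1, a cytochrome P450 and a classic target of the aryl hydrocarbon receptor, had log2 ratios of -0.28 and -0.74 at 1 mM against 3.15 and 2.85 at 5 mM. It rose at the higher dose alone, and its dose difference of 3.51 was the largest of the 10 (limma adjusted p 0.00111). Areg encodes amphiregulin, a ligand of the EGF receptor, and had log2 ratios of 0.78 and 0.72 at 1 mM against 3.16 and 3.44 at 5 mM. Its rise was seen at both doses and was much steeper at 5 mM, with a dose difference of 2.55 (limma adjusted p 6.11e-04). Mro, a gene named for its male-biased expression in reproductive organs, had 0.38 and 0.51 at 1 mM against 3.27 and 3.18 at 5 mM, a dose difference of 2.78 (limma adjusted p 3.24e-04).

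Gch1 encodes GTP cyclohydrolase 1, the first enzyme of tetrahydrobiopterin synthesis, and had log2 ratios of 0.88 and 0.84 at 1 mM and a mean of 3.12 at 5 mM. Replicates were within 0.1 of each other, and the dose difference was 2.26 (limma adjusted p 1.68e-04). A second Gch1 probe gave 0.91 and did not pass (limma adjusted p 0.125). Olr1 encodes a receptor for oxidized low-density lipoprotein, with 1.98 and 1.87 at 1 mM against 3.99 and 4.11 at 5 mM. Both doses raised it, and the dose difference was 2.13 (limma adjusted p 1.68e-04). Ms4a4d, of a family of proteins with 4 membrane-spanning segments, had 0.28 and 0.42 at 1 mM against 2.81 and 3.04 at 5 mM. Its dose difference of 2.57 appeared late, since it was 0.20 at 8 h and -0.08 at 3 h. A probe of the related Ms4a4b gave 2.50 while 3 dim probes of that gene did not pass the test, and the family's copies are alike enough that cross-hybridization cannot be told apart here. The other 3 of the 10 were Tm6sf1 (2.49), Best1 (2.40) and Nol4 (2.07). Best1, which encodes an anion channel, missed the test without any 1 of the 4 arrays, with differences between 2.22 and 2.58. A second Best1 probe gave 1.28 and did not pass (limma adjusted p 0.278). Other Nol4 probes gave 1.79 (limma adjusted p 0.0173) and 1.66, which did not pass (limma adjusted p 0.387).

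Genes that were lower at 5 mM without opposite calls include a hormone receptor and proteins of tendon and epithelium. Agtr2 encodes the type 2 receptor for angiotensin II, and had log2 ratios of 0.68 and 0.49 at 1 mM against -1.85 and -2.15 at 5 mM. It fell at the higher dose, and its dose difference was -2.58 (limma adjusted p 0.00639), although it missed the test without replicate 2 at 5 mM, at -2.43, and without replicate 1 at 1 mM, at -2.48. At 3 h the dose difference of Agtr2 was 1.57 and did not pass (limma adjusted p 0.0605), and the change from 3 h to 24 h was -4.15 (limma adjusted p 0.0177). Krt15, a keratin, had 0.49 and 0.49 at 1 mM against -2.14 and -1.98 at 5 mM, a dose difference of -2.55 (limma adjusted p 0.00118). Tnmd encodes tenomodulin, a tendon membrane protein, and had 0.76 and 0.75 at 1 mM against -1.80 and -2.04 at 5 mM. Its dose difference of -2.68 (limma adjusted p 0.00729) lost the call in 3 of the 4 fits without 1 array, with values between -2.80 and -2.56.

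Some genes answered 1 mM more than 5 mM. Such a larger response at 1 mM, with the dose difference past the test and no opposite call, was found for 209 probes (0.508%), 152 up and 57 down at 1 mM. The count was 63 to 118 without 1 of the 4 arrays and 71 with normexp and loess. With the 4 arrays at 24 h alone limma gave 0, since 0 probes passed the dose difference there, with 8222 at an unadjusted p under 0.05. The median ratio of the 152 was 1.09 at 1 mM and -0.11 at 5 mM. Prr9, which encodes a proline-rich protein, had log2 ratios of 2.83 and 2.64 at 1 mM against 0.21 and 0.05 at 5 mM. It was strongly up at the lower dose alone, with a dose difference of -2.60 (limma adjusted p 0.00600) that was -2.52 and just missed the test without replicate 2 at 5 mM. Fmo2, an enzyme that oxidizes foreign compounds, had 2.37 and 2.49 at 1 mM against 1.01 and 1.07 at 5 mM. It was raised by both doses and more by the lower, but its call (-1.39, limma adjusted p 0.0435) ended in each fit without 1 array, with values between -1.45 and -1.33, and under a slide block, at -1.33.

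Speer4d, Gm9758 and Speer4a, of a rodent family with testis expression, were among the genes with the largest response at 1 mM. The family as a whole was not counted. Speer4d had log2 ratios of 2.39 and 2.46 at 1 mM against 1.06 and 0.84 at 5 mM, a dose difference of -1.48 (limma adjusted p 0.00306). Gm9758 had 2.35 and 2.41 at 1 mM against 0.81 and 0.78 at 5 mM, a dose difference of -1.58 (limma adjusted p 0.00220). Both rose less at the higher dose. Speer4a gave -1.40 (limma adjusted p 0.00922) and missed the test in each fit without 1 array, with values from -1.44 to -1.35. As copies of 1 family, the probes of these genes may read the same transcripts. Normexp with loess gave Speer4d -0.57 (limma adjusted p 0.328) and Gm9758 -0.63 (limma adjusted p 0.207), which do not pass.

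In the other direction, Hgf and Epha4 were lower at 1 mM than at 5 mM. Hgf encodes hepatocyte growth factor, and had log2 ratios of -0.95 and -1.05 at 1 mM against 0.07 and -0.06 at 5 mM. The higher dose sat at the control level on both arrays, and the dose difference was 1.00 (limma adjusted p 0.00966), between 0.94 and 1.07 and not past the test without any 1 array. At 8 h the dose difference of Hgf had been -1.05, so that the doses had changed places by 24 h (change of 2.05, limma adjusted p 0.0136). Epha4, an ephrin receptor, had -0.97 and -0.91 at 1 mM against 0.03 and 0.02 at 5 mM. Its dose difference of 0.96 (limma adjusted p 0.00209) passed the test without any 1 array, and a second Epha4 probe gave 1.06. Calcrl, a receptor component for calcitonin gene-related peptide and adrenomedullin, gave 2.03 and, by its second probe, 1.95, and the first lost its call without any 1 array, between 1.92 and 2.14.

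Gene lists place these genes in their systems. Each list was described by its measured genes past the test in each direction, beside 5.13% higher and 5.61% lower among all genes and a median dose difference of 0.01. Of the list genes given by value in what follows, those that miss the test in some fit without 1 array are named as such. The counts also hold genes that miss it there, and these are not all named.

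The extracellular matrix lists leaned to the lower side. Of 24 matrix metalloproteinases and their inhibitors 6 were lower and 0 higher, with a median dose difference of -0.27. Besides Mmp3 they included Mmp13, a collagenase, with log2 ratios of 0.50 and 0.37 at 1 mM against -1.37 and -1.52 at 5 mM, and a dose difference of -1.88 (limma adjusted p 8.44e-04). Mmp9, a gelatinase, gave -1.32 (limma adjusted p 0.0123) and missed the test without any 1 array, from -1.38 to -1.26, while a second Mmp9 probe gave -1.50 (limma adjusted p 0.00200). Timp1, Timp2 and Timp3, the inhibitors of these proteases, had dose differences of -0.07, -0.24 and 0.20, none past the test. Of 16 small leucine-rich proteoglycans 6 were lower and 0 higher, with a median of -0.64. Dcn encodes decorin, and had 1.05 and 1.11 at 1 mM against -0.48 and -0.66 at 5 mM, a dose difference of -1.65 (limma adjusted p 0.00599) that missed the test in 2 of the 4 fits without 1 array, with values from -1.74 to -1.56. Of 36 collagen chains 7 were lower and 2 higher. Col2a1, the chain of type II collagen, had 0.38 and 0.36 at 1 mM against -0.87 and -0.84 at 5 mM, a dose difference of -1.22 (limma adjusted p 0.00111).

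Adhesion genes split by family. Of 39 protocadherins 16 were lower and 1 was higher, with a median of -0.73. Pcdhb19, a clustered protocadherin, had log2 ratios of -0.73 and -0.62 at 1 mM against -2.09 and -2.04 at 5 mM, a dose difference of -1.39 (limma adjusted p 0.00215). It was down at both doses and further at the higher. The clustered protocadherins are alike in sequence, so their probes may not be independent readings. Of 50 integrins, laminins and classical cadherins 7 were higher and 3 were lower. Itgb7, an integrin beta chain, gave 1.78 (limma adjusted p 0.00160), whereas Itgb2, the beta chain of leukocyte integrins, gave -1.34 (limma adjusted p 0.00133) and Cdh11, a cadherin of mesenchymal cells, gave -1.39 (limma adjusted p 0.00571).

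Immediate early transcription factors and genes of the EGF family leaned to the higher side. Of 25 immediate early transcription factors 8 were higher and 1 was lower, with a median of 0.27. Egr1 had log2 ratios of 0.34 and 0.24 at 1 mM against 1.83 and 1.62 at 5 mM, a dose difference of 1.44 (limma adjusted p 0.00368). Jun, by contrast, had nearly the same ratios at both doses (-0.07, limma adjusted p 0.789). Of 12 EGF family ligands and receptors 3 were higher and 0 lower, and besides Areg they were Ereg, or epiregulin (1.10, limma adjusted p 0.00149), and the feedback inhibitor Errfi1 (0.71, limma adjusted p 0.00544). Ereg had -0.83 and -0.92 at 1 mM against 0.30 and 0.14 at 5 mM, so that its difference came largely from a decrease at the lower dose. Of 27 ERK feedback genes 2 were higher (7.41%) and 1 lower (3.70%), near the shares of all genes, and the phosphatase gene Dusp6 gave 0.81 (limma adjusted p 0.00265).

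Genes of other growth factors were mixed. Of 30 inhibin, activin, BMP and TGF-beta genes 6 were lower and 2 higher. Bambi, a decoy receptor that dampens TGF-beta family signals, had log2 ratios of 0.83 and 0.79 at 1 mM against -0.69 and -0.77 at 5 mM. It moved in opposite directions without reaching 2-fold at 5 mM, and its dose difference was -1.54 (limma adjusted p 6.09e-04). Id3, a target of BMP signals, gave -0.85 (limma adjusted p 0.00504) and Ltbp2, a latent TGF-beta binding protein, gave -1.40 (limma adjusted p 0.00188). Of 18 genes of the IGF system and CCN proteins 6 were lower and 2 higher. Of 48 WNT genes 2 were higher and 2 lower, near the share of all genes, and the secreted antagonist Sfrp2 gave -1.03 (limma adjusted p 0.00422). Of 13 hedgehog pathway genes 2 were higher and 2 lower. Gli1, a transcription factor that this pathway induces, was higher (limma adjusted p 0.00498), while Smo, the pathway's membrane transducer, gave -0.76 (limma adjusted p 0.00200).

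Genes of cholesterol supply leaned to the lower side. Of 17 steroidogenic genes 2 were lower (11.8%) and 0 higher, beside 5.61% lower and 5.13% higher among all genes. That share rests on 2 genes. The median of the list was 0.27 and turned to -0.12 among probes above background. Of these 17 genes 9 were above background. Of 23 genes for cholesterol synthesis and uptake 6 were lower (26.1%) and 0 higher, with a median of -0.26. Insl3 had log2 ratios of -0.18 and 0.07 at 1 mM and a mean of -1.11 at 5 mM. The hormone gene fell at the higher dose alone, with a dose difference of -1.05 (limma adjusted p 0.0133), and missed the test without any 1 array, between -1.17 and -0.93. The other, Hsd17b11, also missed it without any 1 array, between -0.62 and -0.49. Star, whose protein carries cholesterol into mitochondria, had -0.09 and -0.39 at 1 mM against 0.28 and 0.10 at 5 mM, a difference of 0.43 that did not pass (limma adjusted p 0.340). Cyp17a1 did not pass either (-0.12, limma adjusted p 0.760).

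Cell cycle, chromatin and stress genes differed in part. Of 46 genes of DNA replication and mitosis 5 were lower and 0 higher, with a median of -0.28. Among the lower, Tyms, Rrm2 and Ccnb1 missed the test in each fit without 1 array, with values from -0.55 to -0.38. Of 20 cell cycle inhibitors and D-type cyclins 2 were higher and 1 was lower. Among them Cdkn1a, which encodes the inhibitor p21, had log2 ratios of -0.17 and -0.07 at 1 mM against 0.76 and 0.84 at 5 mM. It rose at the higher dose alone, with a dose difference of 0.92 (limma adjusted p 0.00461). Of 28 core histone genes 3 were higher and 0 lower, and of 11 linker histone genes 1 was higher. H2bc14, H2bc1 and the linker histone gene H1f2 missed the test in each fit without 1 array, and H2bc21 in 3 of the 4. Their values there ran from 0.40 to 1.09. Of 17 histone deacetylases and sirtuins 2 were higher and 2 lower, and the largest of these 4 differences was that of Sirt1 (-0.77, limma adjusted p 0.00318). Of 45 genes for glutathione and oxidative stress 14 were higher and 4 lower. Gsta2, a glutathione transferase, gave 2.02 (limma adjusted p 0.00200). Its MAA channel was above background on 1 of the 2 arrays at 1 mM, so the size is uncertain. The relatives Gsta1 and Gsta3 gave -0.79 and -0.78, calls that ended without some 1 array (from -0.85 to -0.74 for Gsta1 and from -0.78 to -0.77 for Gsta3). Near copies in this family make the probes hard to assign. Of 37 heat shock and protein folding genes 7 were lower and 0 higher. Among the lower, Hspb6, Trib3 and Cryab missed the test in each fit without 1 array, with values from -1.25 to -0.55.

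The remaining lists are mostly immune and metabolic. Of 37 actin and contractile genes 5 were higher (13.5%) and 0 lower, and of 19 BCL2 family genes 1 was lower (5.26%) and 0 higher. Of 55 interferon-inducible genes 4 were higher and 4 lower, and of 42 genes for MHC and antigen processing 2 were higher and 2 lower, both near the share of all genes. Of 87 chemokines and interleukins 9 were higher and 4 lower. Il33, a nuclear cytokine, had log2 ratios of 0.99 and 1.14 at 1 mM against 0.22 and 0.19 at 5 mM, a dose difference of -0.86 (limma adjusted p 0.00199), so that the lower dose gave more of it. Of 27 glucose and monocarboxylate transporters 4 were higher and 2 lower. Slc2a4, the insulin-regulated glucose transporter, had 2.20 and 2.21 at 1 mM against 3.99 and 3.97 at 5 mM, a dose difference of 1.77 (limma adjusted p 0.00410). Of 42 genes of fatty acid use 3 were higher and 3 lower, with Fabp4, a fatty acid carrier, at 1.04 (limma adjusted p 0.00297) and Elovl6, which lengthens fatty acids, at -0.72 (limma adjusted p 0.00258).

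**Figure D5:**
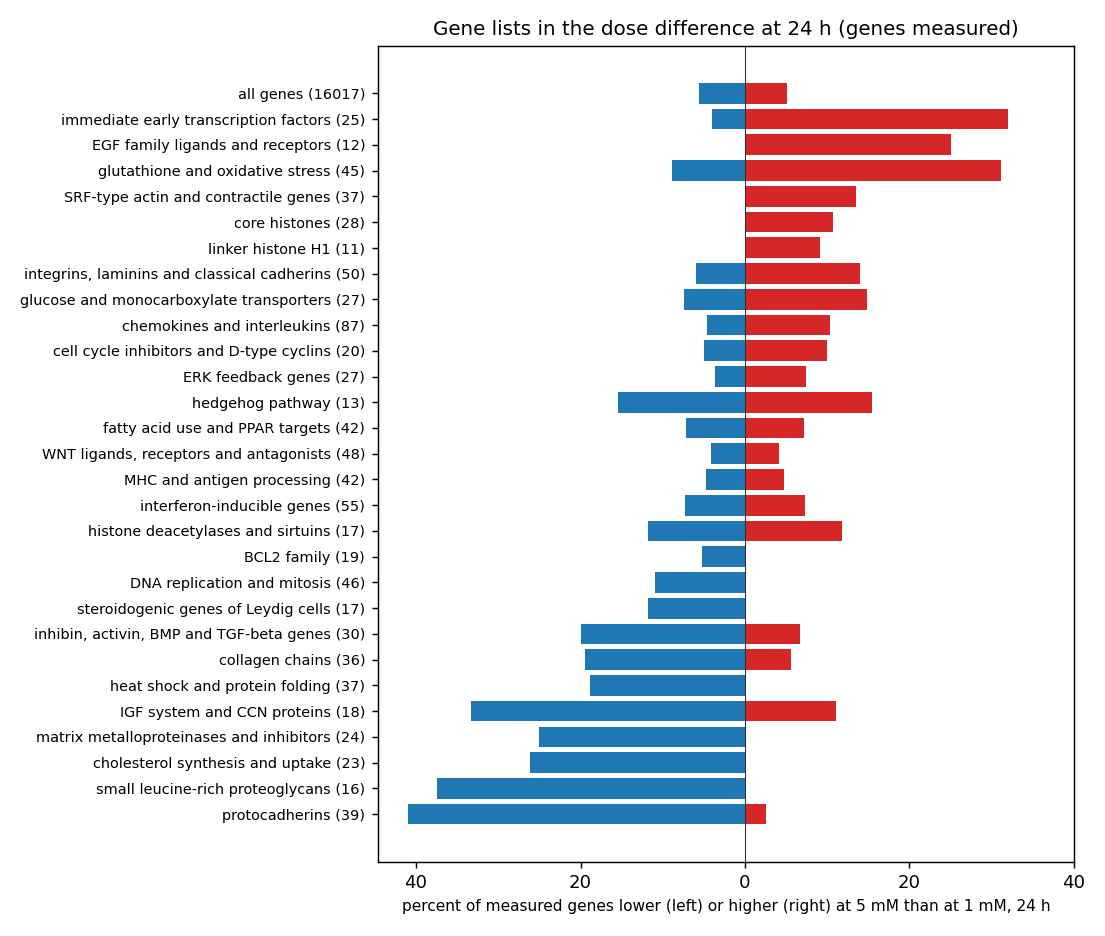
Percent of the measured genes of each list that were lower (blue, left) or higher (red, right) at 5 mM than at 1 mM after 24 h, with the number of measured genes in brackets. Against 5.61% lower and 5.13% higher among all genes, 16 of 39 protocadherins and 6 of 16 small leucine-rich proteoglycans were lower, and 8 of 25 immediate early transcription factors were higher.

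A last group was above background in the MAA channel at 1 dose alone. That held for 199 probes at 5 mM and for 594 at 1 mM. These counts are not dose responses, since the control channel can be bright on the same array. Of the 10 probes picked by their limits, 5 in each direction among those with a gene symbol, those of Cbfa2t3, Cnnm1, Arsi, Elf4 and Mrgprb5 did not pass the test of the ratios, although a second Cbfa2t3 probe, with dim control channels, did (limma adjusted p 0.00774). On 1 array of 1 mM the signal of Arsi was 897 in the MAA channel and 1010 in the control channel. The group was chosen by its MAA channels, so an adjusted p only places a gene among all probes. Akr1c18, which encodes an enzyme that inactivates progesterone, had log2 ratios of -0.20 and 0.41 at 1 mM against 2.87 and 2.75 at 5 mM. Its MAA signal was at least 10.3-fold higher at 5 mM, with a limma adjusted p of 0.00111 for the ratios. The control channel of Akr1c18 was above background on 1 of the 2 arrays at each dose, so these ratios are uncertain in size. Ablim3, an actin-binding protein gene, had 1.83 and 1.33 at 1 mM against 4.15 and 5.82 at 5 mM, at least 20.3-fold higher in the MAA channel (limma adjusted p 0.00921), and it missed the test without replicate 2 at 1 mM (limma adjusted p 0.0707). Its control channel was dim on all 4 arrays, so these ratios have no firm base. Its other 2 probes did not pass. Taf7l, a germ cell form of a general transcription factor subunit, had 1.04 and 1.08 at 1 mM against -2.99 and -1.76 at 5 mM, at least 7.05-fold lower in the MAA channel at 5 mM (limma adjusted p 0.00570).

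These results are limited by 2 arrays per dose, by replicate 2 of the 2 doses lying on different slides, and by signals near background for many probes. The comparison at 24 h is of 1 cell line, and protein was not measured here.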

How the data were processed

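RNA of TM3 cells given 1 mM or 5 mM methoxyacetic acid (MAA) for 3, 8 or 24 h was measured on 12 Agilent 2-colour arrays, 2 per dose and time with the dyes exchanged. Each array set a pool of 3 treated cultures against a pool of 3 control cultures. The authors scanned the arrays with Agilent Feature Extraction 9.5.3.1, and the deposited files hold the fluorescence intensity of each spot in both channels after background subtraction and dye normalization by that software. The deposited value table holds log10 MAA/control ratios to 2 decimals, and its direction was checked against the software's log ratio turned by dye.

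The log2 MAA/control ratio was computed from the processed signals, turned by dye, for spots that are not controls. Spots that the software called non-uniform or outlying were left out, and the rest were averaged per probe name. A fit in limma 3.58.1 under R 4.3.3, with data.table and jsonlite, gave each of the 6 groups a mean over all 12 arrays, with 6 residual degrees of freedom and 1.52 prior degrees of freedom. The contrast 5 mM minus 1 mM was tested at each time with moderated t tests and Benjamini-Hochberg adjustment, as was its change between times. Figures and promoters used Python 3.11.15 and matplotlib 3.10.9. Symbols came from the RefSeq table of GRCm38.p6 and reached 22147 of 41174 probes. One probe had too few values for the test. Single channels were normalized by loess within arrays and by quantiles of the average signal between them.

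Opposite directions are calls at each dose, of opposite sign, by the study's thresholds. The genes named are the 10 largest differences past the test in each direction that were over 2-fold in both replicates with both channels well above background, the genes with the largest opposite differences, the genes with the largest response at 1 mM, those above background at 1 dose, and the list genes past the test with the largest differences. Not every gene so picked is described. Other genes with opposite directions, genes near the thresholds, other family members and list genes that did not pass were chosen after their values were seen. The rule and the lists were written with earlier results of these data known. Alternatives tried were normexp with offset 50 and loess, the deposited log ratios, the value table, median centring, probes above background, outlying spots kept, blocks for replicate and slide, the 4 arrays at 24 h alone, MAA channels alone, differences over 2-fold, and leaving out each array. The error model of Rosetta Resolver was not run.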

Additional observations from a re-analysis of the deposited data

Results flagged for a closer look

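Each result here is a dose difference (5 mM minus 1 mM, log2 scale) at 24 h that differed from the dose difference at an earlier time by a test of the change itself in the fit of all 12 arrays. From 8 h to 24 h the dose difference changed for 438 probes, and from 3 h to 24 h for 576. With a replicate block, a term for the dye orientation that arrays share, these counts were 2343, 50.7% of it upward against 63.2%, and 2564. The genes below were picked by their ratios at 24 h, which the change also uses. Their changes are therefore a description and not a separate test. The reasons for these changes were not tested.

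Against 8 h, the change was upward for Ms4a4d (2.37), Ms4a4b (2.36), Olr1 (1.09), Apon (1.59), Prxl2a (3.07), Hgf (2.05) and Epha4 (0.93). The limma adjusted p of the change was 0.0496 for Prxl2a. Without 1 of the 4 arrays at 24 h, the dose difference at 24 h missed the test for Prxl2a in 4 of 4 fits (1.54 to 1.73), for Hgf in 4 (0.94 to 1.07) and for Apon in 3 (0.47 to 0.88 over the 4). The change was downward for Fam180a (-2.25), Mmp3 (-3.41), Tnc (-2.57), Il20ra (-3.52), Fbxw26 (-2.26) and Fbxw16 (-1.77). For Il20ra, Fbxw26 and Fbxw16 neither 5 mM array at 24 h had a MAA channel well above background, so their changes here and below are uncertain in size. Their dose differences at 24 h were -0.55, -0.58 and -0.79 by normexp with loess.

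Against 3 h, the change was upward for Cyp1a1 (4.03), Mro (1.54), Ms4a4d (2.65), Areg (1.92), Ms4a4b (2.61), Tm6sf1 (2.28), Gch1 (0.95), Olr1 (0.80), Nol4 (1.95) and Apon (1.60). It was downward for Fam180a (-2.67), Mmp3 (-3.43), Agtr2 (-4.15), Tnc (-2.62), Ostn (-2.20), Il20ra (-3.13), Fbxw26 (-2.85), Fbxw16 (-2.77), Speer4d (-1.35) and Gm9758 (-1.40).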

How the results depend on the processing

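The number of probes past the test for the dose difference at 24 h (3462) depended on the processing. It was 5475 with the deposited log ratios, 5413 with the value table, 5296 among probes above background, 9455 with the MAA channels alone, 1525 after median centring and 972 over 2-fold. It was within 1.5 times with normexp and loess (4714), a slide block (4570) and outlying spots kept (3450). With normexp 61.0% of the probes were higher at 5 mM, against 48.0%. Without 1 of the 4 arrays it was 816 to 1011, where the lone array of a dose is assumed to vary like the other groups. With the 4 arrays at 24 h alone limma passed 0 probes, with 8222 at an unadjusted p under 0.05, a lowest adjusted p of 0.0943 and 2 residual degrees of freedom.

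Opposite directions (23 probes) fell to 5 with normexp and loess, 3 of them shared. A replicate block gave 23, of which 17 were shared, and a slide block gave 24, of which 18 were shared. Larger responses at 1 mM (209) were 71 with normexp, 317 with a slide block, 0 with the 4 arrays alone, and 63 to 118 without 1 array. At 8 h (4162) the count was 1491 after median centring, 30.0% of it higher against 47.9%, and 6293 with a slide block. At 3 h (1399) it was 2464 with normexp, 2916 with the deposited log ratios and 220 after median centring, 63.6% of it higher against 44.4%. The change from 8 h to 24 h (438) passed for 1126 probes with normexp, 75.3% upward against 63.2%, and that from 3 h to 24 h (576) for 1346, and for 1107 with a slide block.

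The 2 replicate numbers are also the 2 dye orientations, and deviations of the 2 doses at 24 h from their means had a correlation of 0.610 across probes above background. A replicate block gave 7209 probes at 24 h, 328 larger responses at 1 mM, 8166 at 8 h, 4003 at 3 h, 2343 for the change from 8 h, 50.7% of it upward, and 2564 for the change from 3 h. For gene list members past the test (177) it gave 315, and median centring gave 97.

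Of 145 named probes 140 passed, and 80 did so over 2-fold, 61 to 72 without 1 array and 0 with the 4 arrays alone. All 145 kept direction and side of the threshold with the deposited log ratios and with the value table, 125 with normexp and 106 after median centring. The steroidogenic list's median turned from 0.27 to -0.12 among probes above background. Of the named probes that did not pass, Cbfa2t3 turned to 0.00, Arsi to 0.03 and Mrgprb5 to 0.02 with normexp, Arsi to 0.07 without replicate 2 at 5 mM, and Mrgprb5 to 0.06 without replicate 1 at 5 mM, from a lowest value of -0.51 without replicate 2 at 5 mM. The cause was not tested for any of these. A MAA channel that is dim at 1 dose limits what its log difference can show.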

Other observations

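Of the markers of cells other than Leydig cells, 8 of 35 passed the test of the dose difference at 24 h (22.9%), 4 higher and 4 lower, beside 5.13% higher and 5.61% lower among all genes. Higher at 5 mM than at 1 mM were the Sertoli cell markers Rhox5 (0.96, limma adjusted p 0.00362) and Dhh (1.93, limma adjusted p 0.0217), the macrophage marker Mrc1 (1.95, limma adjusted p 0.00362) and the endothelial marker Vwf (limma adjusted p 0.0345). Lower were the macrophage markers Cd14 (-1.32, limma adjusted p 9.53e-04) and Lyz2 (-1.06, limma adjusted p 0.00371), the endothelial marker Emcn (-1.94, limma adjusted p 0.0342) and the germ cell marker Ddx4 (-0.65, limma adjusted p 0.0434). Dhh missed the test in 3 of the 4 fits without 1 array, with values from 1.48 to 2.39. The control channels of Dhh, Mrc1 and Vwf were not above background on all 4 arrays. The Sertoli cell markers Sox9, Gata4 and Wt1, which were, did not pass (-0.32, -0.38 and -0.25).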
